A study of Macaca mulatta with 33 samples.

Results

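The respiratory chain of the mitochondrion passes electrons to oxygen, and ATP synthase uses the proton gradient this builds to make ATP. The genes described here are nuclear-encoded subunits of complexes II, III and IV and of ATP synthase (complex V), measured in the livers of juvenile macaques. They were taken by name from a table of 34882 genes: SDHA, SDHB, SDHC, SDHD and CYC1, and every symbol that began with UQCR, ATP5, COX4, COX5, COX6, COX7 or COX8. This gave 39 genes, of which 4 belong to complex II, 6 to complex III, 14 to complex IV and 15 to complex V. The set is not complete, as it misses subunits without a symbol in the table, such as COX6A1 and ATP5ME. It also holds the inhibitor ATP5IF1 and COX7A2L, which helps to join complexes, both counted here as subunits.

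Complex II, succinate dehydrogenase, is also an enzyme of the citric acid cycle and is encoded wholly in the nucleus. Complex III passes electrons on to cytochrome c, and complex IV, cytochrome c oxidase, passes them to oxygen. Complexes III, IV and V each combine subunits made from mitochondrial DNA with the nuclear-encoded ones described here, and the liver depends on them for the ATP that glucose and urea synthesis consume.

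RNA was sequenced from the livers of 33 offspring, 1 library per animal, all 3 years old. Groups are named by maternal and postweaning diet, where WSD is a western-style diet and CD a control diet. WSD/WSD animals (n = 7) had mothers on the western-style diet through pregnancy and nursing and ate it themselves after weaning. WSD/CD animals (n = 10) had such mothers but were weaned to the control diet. CD/WSD animals (n = 6) had control-fed mothers and ate the western-style diet after weaning, and CD/CD animals (n = 10) had the control diet throughout. The organism field names the rhesus macaque and the design text the Japanese macaque. Sex, relatedness and collection dates are not in the labels, so p-values treat the animals as independent.

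Hepatocyte markers were present in each library. Their summed level over 9 genes ranged from 22438 to 32778 FPKM in WSD/WSD, 6012 to 28607 in WSD/CD livers, 20645 to 31602 in CD/WSD livers and 22071 to 31051 in CD/CD livers. FPKM is the number of fragments divided by transcript length and by the library's mapped fragments. Transcripts of 13 mitochondrially encoded genes took on average 1.82% of the summed FPKM in the WSD/WSD livers and 7.12% in the WSD/CD livers. In the CD/WSD and CD/CD livers they took 2.39% and 2.35%. Mitochondrially encoded COX3 held most of this sum, with a mean of 11615 FPKM, against 881 for ND2, the next gene. The titles carry animal numbers whose first 2 digits are 30, 31, 33 or 34, here called number series, and the labels do not say what they stand for. Series 34 held 5 WSD/CD animals (replicates 6 to 10) and no animal of another group. Series 30 was the one with animals of all 4 groups: 5 WSD/WSD, 2 WSD/CD, 3 CD/WSD and 4 CD/CD. These are bulk libraries, in which fewer cells of a type and less RNA per cell cannot be told apart.

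Mean levels of the 35 subunits that could be tested ran from 0.634 to 602 FPKM. COX7C, a small subunit of complex IV, averaged 602 FPKM over all 33 livers and was the highest of the 39 genes. ATP5PF, the coupling factor 6 subunit of the ATP synthase peripheral stalk, averaged 284 FPKM, and UQCRQ, a small subunit of complex III, 273 FPKM. SDHA, the flavoprotein of complex II that oxidises succinate, averaged 25.1 FPKM.

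The lowest tested gene of each complex was SDHD, a membrane anchor of complex II, with 0.634 FPKM, CYC1, the cytochrome c1 of complex III, with 10.1 FPKM, COX7A2 of complex IV with 0.734 FPKM, and ATP5F1D of the ATP synthase central stalk with 2.03 FPKM. Subunits that stand together in a complex had unequal levels. ATP5F1A and ATP5F1B, the alpha and beta chains of the catalytic head, averaged 47.7 and 6.21 FPKM. Many of these genes have processed copies elsewhere in mammalian genomes, so a level can be uncertain where reads were shared among copies, and levels per length are given as deposited.

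**Figure D1:**
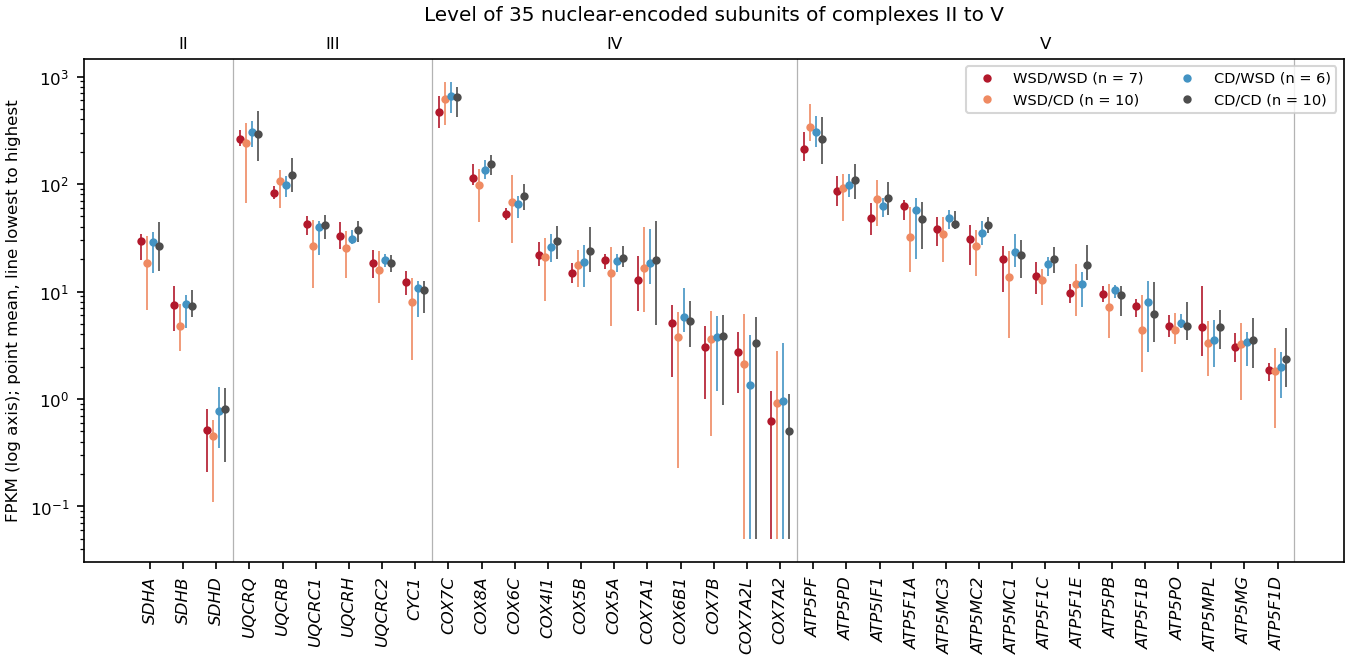
FPKM (log axis) of the 35 tested subunits, ordered by level within complexes II to V, in WSD/WSD, WSD/CD, CD/WSD and CD/CD livers. Points are group means, lines run from the lowest to the highest animal, and animals at 0 are drawn at 0.05. COX7C, UQCRQ and ATP5PF stand at the top, and the WSD/CD lines reach lowest for most genes of each complex.

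Of the 39 genes, 4 had a mean under the 0.5 FPKM needed for a test. SDHC, the other membrane anchor of complex II, averaged 0.110 FPKM. The tissue isoforms COX4I2, COX6A2 and COX6B2 averaged 0.00255, 0.0820 and 0.00117 FPKM. COX6A2, the heart and muscle form of subunit VIa, stood at 0 in 31 of the 33 livers. It reached 2.12 FPKM in WSD/WSD replicate 4 and 0.591 FPKM in CD/WSD replicate 5. In those libraries the summed level of 5 striated muscle markers was 17.1 and 0.611 FPKM, against at most 0.598 FPKM in the CD/CD livers, and the part of muscle RNA in the COX6A2 values was not tested. COX7A1, another muscle isoform, was at 12.7 ± 5.48 FPKM in WSD/WSD, 16.4 ± 10.4 in WSD/CD livers, 18.5 ± 9.76 in CD/WSD livers and 19.8 ± 11.3 in CD/CD livers (SD, n = 7, 10, 6 and 10), groups that overlap widely.

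The comparison of WSD/CD with CD/CD livers asks what a maternal western-style diet leaves behind in offspring weaned to the control diet. Of the 35 tested subunits, 10 fell in WSD/CD livers and none rose (limma on log2(FPKM + 1), Benjamini-Hochberg adjusted p under 0.05 over 12497 genes). Over all genes tested, 9.55% were called, 8.03% as lower and 1.52% as higher. The median log2 fold change of the 35 subunits was -0.42, against -0.15 over all genes tested, and 33 of the 35 values were negative. The 10 were SDHB of complex II, UQCRC1 and UQCRH of complex III, COX4I1, COX5A and COX8A of complex IV, and ATP5F1C, ATP5F1E, ATP5MC1 and ATP5MC2 of complex V.

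SDHB carries the iron-sulfur clusters of complex II. It ranged from 2.78 to 7.65 FPKM with a median of 4.51 in WSD/CD livers, against 5.79 to 10.3 with a median of 6.79 in CD/CD livers. Most WSD/CD livers lay below the whole CD/CD range, though the groups overlapped. The log2 fold change was -0.55 ± 0.15 (SE; limma, adjusted p = 0.0283).

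UQCRC1, a core protein on the matrix side of complex III, had 10.7, 24.5 and 46.5 FPKM as its lowest, median and highest value in WSD/CD livers, against 30.7, 40.1 and 51.2 FPKM in CD/CD livers. The WSD/CD values were widely spread, with 3 within the CD/CD range and the others below it. The log2 fold change was -0.75 ± 0.19 (SE; limma, adjusted p = 0.0227), the lowest of the 35 subunits. UQCRH, the hinge protein that sits beside cytochrome c1, ranged from 13.2 to 36.5 FPKM in WSD/CD and from 28.9 to 45.4 FPKM in CD/CD livers, with a log2 fold change of -0.59 ± 0.14 (adjusted p = 0.0183 with limma).

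In complex IV, COX8A, a small subunit of the inner membrane, had 44.0, 111 and 138 FPKM as lowest, median and highest value in WSD/CD livers, against 122, 155 and 185 FPKM in CD/CD livers. All but 2 WSD/CD livers lay below the lowest CD/CD liver. Its log2 fold change was -0.69 ± 0.16 (SE; limma, adjusted p = 0.0165). COX5A, on the matrix side of the enzyme, and COX4I1, its membrane-spanning subunit IV, had log2 fold changes of -0.57 and -0.51 with adjusted p-values of 0.0394 and 0.045 from limma.

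In ATP synthase, ATP5F1C, the gamma chain that turns within the catalytic head, ranged from 7.45 to 16.1 FPKM with a median of 13.4 in WSD/CD livers, against 14.7 to 26.1 with a median of 20.2 in CD/CD livers. Its log2 fold change of -0.64 ± 0.13 had the smallest adjusted p of the 35 subunits, 0.0116 with limma. The c-ring genes ATP5MC1 and ATP5MC2, which encode the rotor in the membrane, had log2 fold changes of -0.74 and -0.68. The third c-ring gene, ATP5MC3, was at 34.3 ± 10.2 FPKM in WSD/CD and 42.8 ± 4.93 FPKM in CD/CD livers (SD, n = 10 each) and did not pass, with an adjusted p of 0.0858 from limma.

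Not all subunits followed. ATP5PF and COX7A2 were the genes with positive values, 0.37 and 0.27 on the log2 scale, with adjusted p-values of 0.149 and 0.511 from limma. ATP5PF was at 339 ± 96.2 FPKM in WSD/CD and 265 ± 80.3 FPKM in CD/CD livers (SD, n = 10 each). ATP5IF1, the inhibitor that blocks ATP synthase when the gradient fails, was at 73.3 ± 20.5 FPKM in WSD/CD and 73.7 ± 16.6 FPKM in CD/CD livers, a log2 difference of -0.029.

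**Figure D2:**
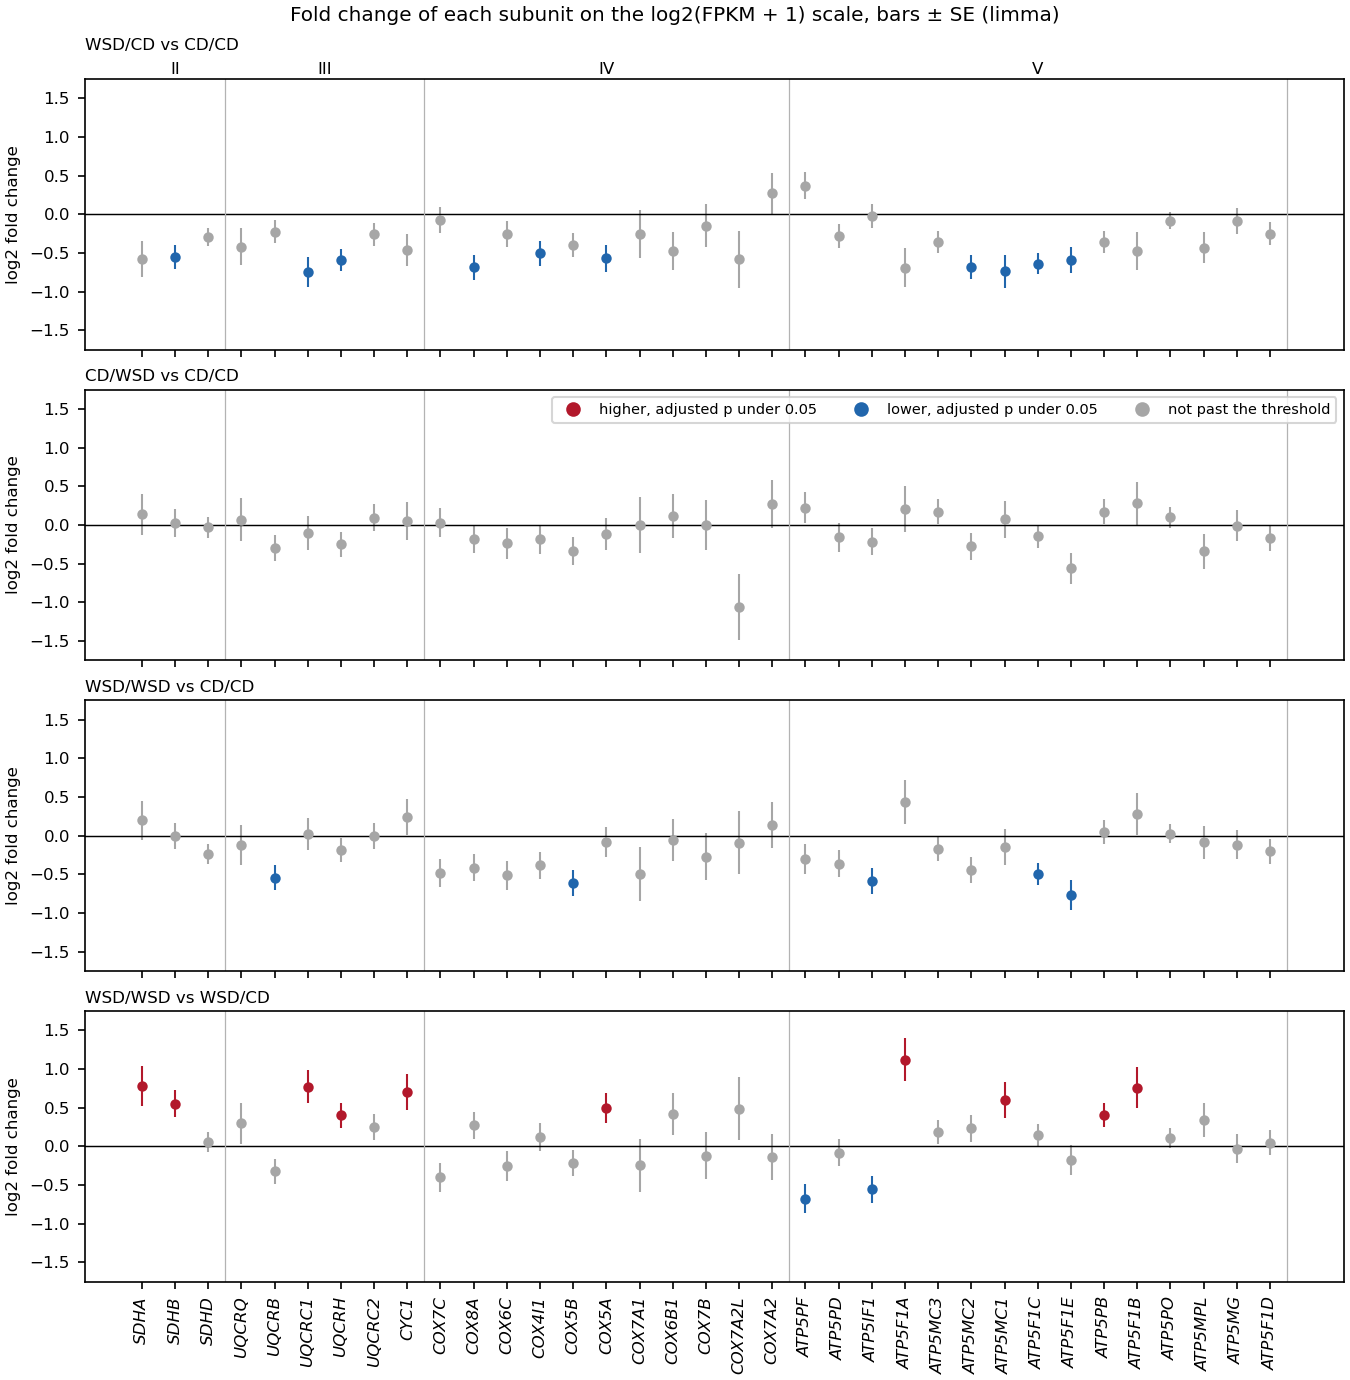
Log2 fold change (on the log2(FPKM + 1) scale, bars ± SE) of the 35 tested subunits in 4 comparisons, ordered as in the plot of levels. Blue points fell and red points rose at an adjusted p under 0.05: 10 fell in WSD/CD against CD/CD, none was called in CD/WSD against CD/CD, 5 fell in WSD/WSD against CD/CD, and 10 rose and 2 fell in WSD/WSD against WSD/CD.

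The WSD/CD livers were not alike. The median deviation of the 35 subunits from their CD/CD mean was -1.23, -0.74, -0.78 and -0.49 (log2) in WSD/CD replicates 6, 7, 9 and 10, with 34, 29, 34 and 28 of the subunits below that mean. Over all genes tested, the median deviation in the same livers was -0.52, -0.35, -0.35 and -0.13, so all genes were shifted down there too. The fifth animal of series 34, replicate 8, stood at 0.0014 for the subunits, with 17 of 35 below, and at 0.046 over all genes. Among the WSD/CD animals of series 30 and 33 the median deviation of the subunits ran from -0.36 to -0.08, and that over all genes from -0.11 to 0.019.

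Replicates 6, 7, 9 and 10 also had mitochondrial shares of 15.8%, 11.5%, 16.1% and 7.58%, against 1.33% to 3.46% in the CD/CD livers, and replicate 8 had 1.98%. The hepatocyte marker sums of replicates 6, 7, 9 and 10 were 6012, 10795, 9494 and 14284 FPKM, below the CD/CD range given above. WSD/CD replicates 2 and 3 had shares of 6.94% and 5.06%, also above the CD/CD range. Replicate 2 had a hepatocyte sum of 18382 FPKM and a stellate sum of 226 FPKM. The median deviations of replicates 2 and 3 were -0.11 and -0.13 for the subunits, and -0.080 and -0.11 over all genes. Of the 8 stellate cell and fibroblast markers 5 rose in WSD/CD livers, and their sum ranged from 94.7 to 278 FPKM in WSD/CD and from 71.6 to 177 FPKM in CD/CD livers. The part of these differences in the subunits' values was not tested.

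Without the 5 animals of series 34, none of the 35 subunits was called in WSD/CD against CD/CD with limma. Over all genes 0% were called there, and the subunit median was -0.16 against -0.039 over all genes. None was called when the 2 groups were fitted alone, which drops the spread of the other groups, and 0% of all genes were. In the fit of all groups 19 subunits had an unadjusted p under 0.05 with limma, as did 3811 of all 12497 genes. Leaving out WSD/CD replicate 6, 7 or 9 left 4 calls each, and leaving out WSD/CD replicate 10 or CD/CD replicate 6 left 6. The shares of all genes called in these fits are not given here, so losses among the subunits and among all genes cannot be told apart. With the number series as a factor or the mitochondrial share as a covariate none was called, where 0.008% and 0% of all genes were. Within series 30, where 2.92% of all genes were called (0.992% lower, 1.93% higher), the call was COX8A alone. With median-of-ratios scaling 5 subunits fell, where 6.05% of all genes were called (2.85% lower, 3.2% higher). Summed Y-linked levels had a median of 28.01 FPKM in WSD/CD and 0.271 FPKM in CD/CD livers, and with the mean Y-linked level as a covariate 6 subunits fell, where 4.61% of all genes were called (3.94% lower, 0.664% higher).

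**Figure D3:**
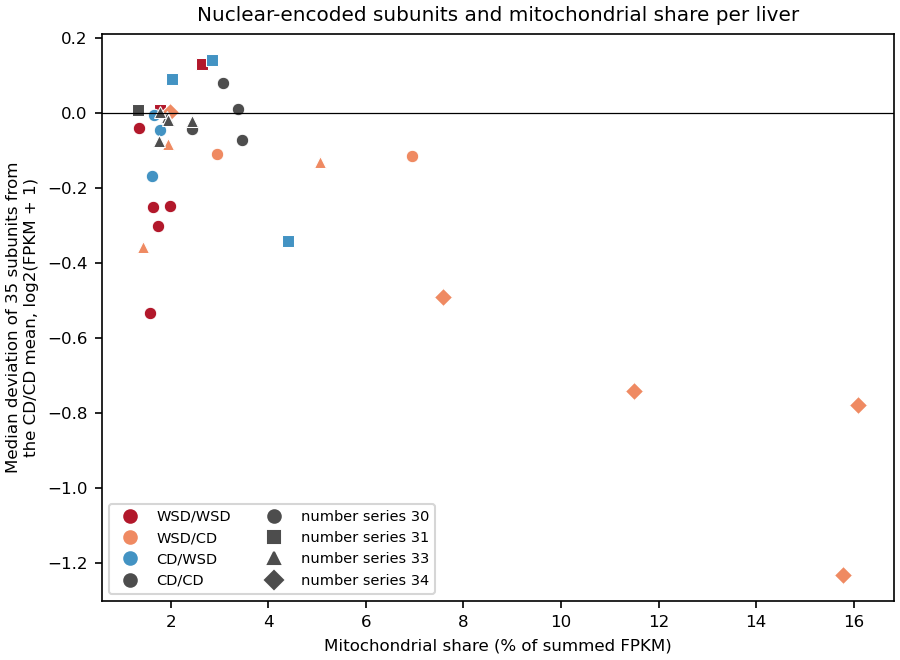
Median deviation of the 35 subunits from the CD/CD mean on the log2(FPKM + 1) scale against the mitochondrial share of summed FPKM, 1 point per liver, with colour for the diet group and shape for the number series. The 4 WSD/CD livers of series 34 with a share above 7% lie between -0.49 and -1.23, and 4 of the WSD/WSD livers of series 30 lie between -0.25 and -0.53 at shares under 2%. The median deviation over all genes, not drawn, was -0.13 to -0.52 in the former and 0.046 to 0.33 in the latter.

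Ratios within a library do not depend on its scaling. The log2 ratio of MT-CO1, the mitochondrially encoded catalytic subunit of complex IV, over COX4I1 was 3.74 ± 1.37 in WSD/CD and 2.13 ± 0.509 in CD/CD livers (SD, n = 10 each). All 10 WSD/CD livers lay above the CD/CD mean. The difference of 1.61 had a two-sided permutation p of 0.0008, and 0.012 after Benjamini-Hochberg adjustment over 15 tests. Without the 5 animals of series 34 it was 0.66 with an adjusted exact permutation p of 0.134.

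For complex III, the log2 ratio of MT-CYB (cytochrome b) over UQCRC2, the other core protein, was 4.39 ± 1.92 in WSD/CD and 3.13 ± 0.785 in CD/CD livers, with an adjusted permutation p of 0.167. For complex V, that of MT-ATP6 over ATP5F1B was -0.50 ± 1.64 in WSD/CD and -1.68 ± 1.04 in CD/CD livers, also with an adjusted permutation p of 0.167. Neither difference passed. Among the 13 mitochondrially encoded genes, of which 12 could be tested, 4 rose in WSD/CD against CD/CD livers, where 1.52% of all genes did.

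In CD/WSD against CD/CD livers, which compares the postweaning diets in offspring of control-fed mothers, none of the 35 subunits passed the threshold (0.024% of all genes did, 0.016% higher and 0.008% lower). With limma 2 subunits had an unadjusted p under 0.05, as did 1790 of all 12497 genes. The median log2 fold change was -0.0076, against 0.026 over all genes. The gene with the smallest p was ATP5F1E, the epsilon chain of the central stalk, at 11.6 ± 3.07 FPKM in CD/WSD and 17.6 ± 4.79 FPKM in CD/CD livers (SD, n = 6 and 10; log2 fold change -0.56, limma adjusted p = 0.232). COX7A2L, which helps to join complexes III and IV, was at 1.35 ± 1.83 FPKM in CD/WSD and 3.34 ± 1.88 FPKM in CD/CD livers, with an adjusted p of 0.279 from limma.

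Among the CD/WSD livers 1 animal stood apart. CD/WSD replicate 5 had 20.04 FPKM of ATP5F1A, against 47.1 to 74.3 in the other CD/WSD livers, and 14.8 FPKM of SDHA, against 26.5 to 35.8. Its mitochondrial share of 4.41% was the highest of its group. With libraries weighted by their scatter, 2 subunits rose and 9 fell in CD/WSD against CD/CD livers, where 42.4% of all genes were called (29.4% higher, 12.9% lower). ATP5F1B and ATP5F1A rose by 0.68 and 0.47 on the log2 scale, and ATP5F1E fell by 0.63.

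WSD/WSD livers, with the western-style diet before and after weaning, had 5 of 35 subunits that fell against CD/CD livers and none that rose. Over all genes 16.7% were called, 3.42% as lower and 13.2% as higher. The subunits' median log2 fold change was -0.17, against 0.10 over all genes. The 5 were UQCRB of complex III, COX5B of complex IV, and ATP5F1C, ATP5F1E and ATP5IF1 of complex V.

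ATP5F1E had 7.76, 9.74 and 11.8 FPKM as lowest, median and highest value in WSD/WSD livers, against 12.9, 15.9 and 26.9 FPKM in CD/CD livers. The groups did not overlap, which held for no other subunit in this comparison and for 1.46% of all genes. Its log2 fold change was -0.77 ± 0.19 (SE; limma, adjusted p = 0.0122). ATP5F1C was at 14.03 ± 3.28 FPKM in WSD/WSD and 20.01 ± 3.34 FPKM in CD/CD livers (SD, n = 7 and 10), with a log2 fold change of -0.50 and a limma adjusted p of 0.0234.

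ATP5IF1 ranged from 33.5 to 66.1 FPKM with a median of 44.6 in WSD/WSD livers, against 51.1 to 103 with a median of 70.5 in CD/CD livers. Of the WSD/WSD livers 4 lay below the CD/CD range and 3 within it. The log2 fold change was -0.59 ± 0.17 (SE; limma, adjusted p = 0.0223). COX5B, which binds zinc on the matrix side of complex IV, was at 14.9 ± 2.69 FPKM in WSD/WSD and 23.9 ± 7.25 FPKM in CD/CD livers, with a log2 fold change of -0.61 and a limma adjusted p of 0.0181. UQCRB, a small subunit at the ubiquinone site of complex III, was at 81.7 ± 8.75 FPKM in WSD/WSD and 122 ± 26.96 FPKM in CD/CD livers, with a log2 fold change of -0.55 and a limma adjusted p of 0.0237.

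ATP5F1A was at 62.1 ± 9.01 FPKM in WSD/WSD and 47.6 ± 15.3 FPKM in CD/CD livers, a log2 fold change of 0.43 with an adjusted p of 0.283 from limma. CYC1 was at 12.2 ± 1.87 FPKM in WSD/WSD and 10.3 ± 2.19 FPKM in CD/CD livers, and SDHA at 29.4 ± 4.98 and 26.4 ± 8.99 FPKM, neither past the threshold. ATP5F1C and ATP5F1E were the subunits that fell in WSD/CD as well as in WSD/WSD livers, 2 of the 10 and 2 of the 5. Both comparisons use the same CD/CD animals. Without WSD/WSD replicate 4 or 5 the count of subunits that fell in WSD/WSD livers was 3, and without WSD/CD replicate 6, which enters through the shared spread, it was 9. Shares of all genes are not given for these fits either. With median-of-ratios scaling, where the median of all genes moved from 0.10 to -0.014, 12 fell, where 18.2% of all genes were called (8.16% lower, 10.1% higher).

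**Figure D4:**
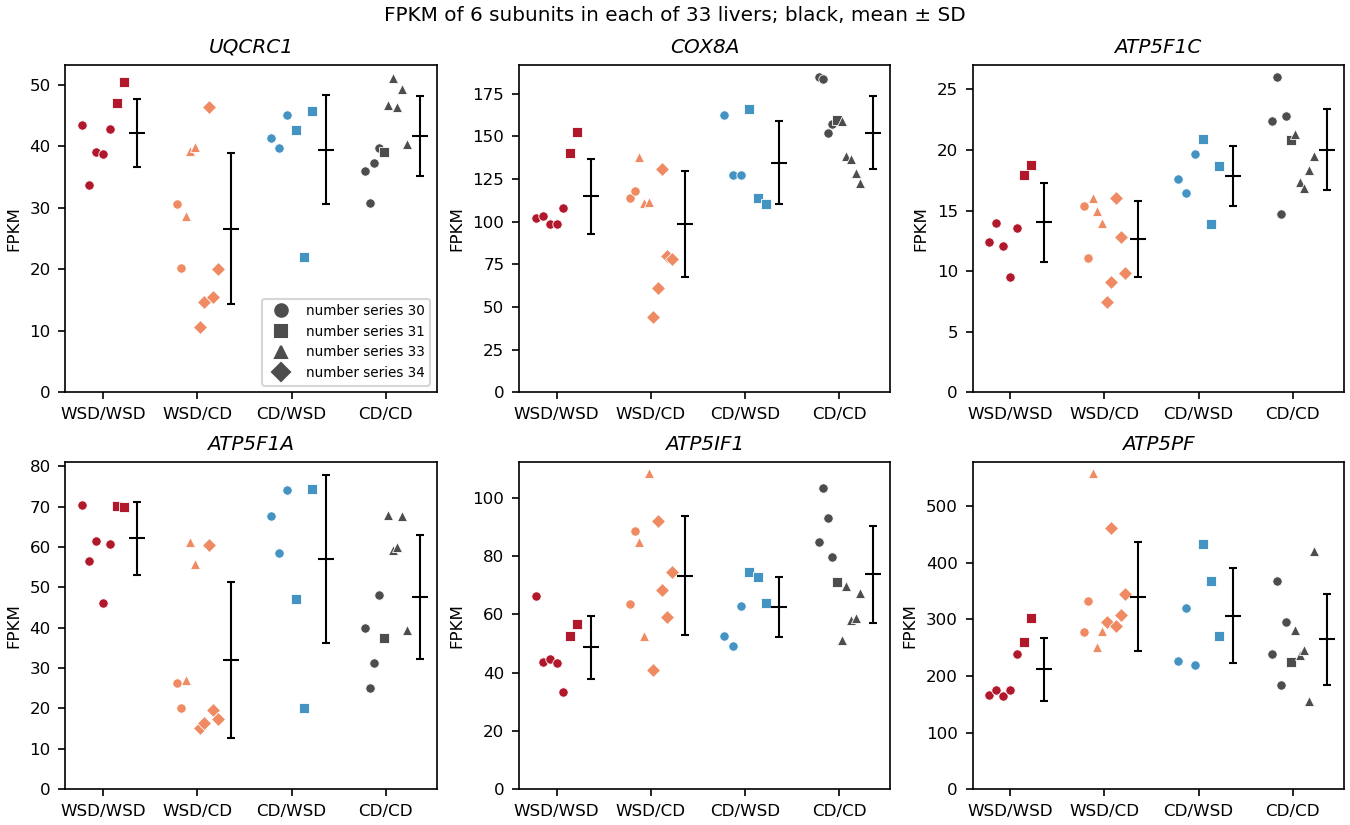
FPKM of UQCRC1, COX8A, ATP5F1C, ATP5F1A, ATP5IF1 and ATP5PF in each liver of the 4 groups, with shape for the number series and mean ± SD in black. UQCRC1, COX8A and ATP5F1A show 4 of the 5 WSD/CD animals of series 34 low and replicate 8 among the other livers, ATP5IF1 is lower in WSD/WSD than in CD/CD livers, and ATP5PF is not low in the WSD/CD animals of series 34.

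Within series 30 the calls in WSD/WSD against CD/CD livers ran both ways. In 5 WSD/WSD against 4 CD/CD livers, 13 fell and 3 rose, where 44.7% of all genes were called, 11.4% as lower and 33.3% as higher, so the share of subunits called was close to that of all genes. The 3 that rose were ATP5F1A (log2 fold change 0.72), ATP5F1B (0.68) and SDHA (0.49), with limma adjusted p-values of 0.00572, 0.000799 and 0.039. The 13 that fell held 6 genes of complex IV, COX4I1, COX5B, COX6C, COX7A1, COX7C and COX8A, then UQCRB of complex III, and ATP5F1C, ATP5F1E, ATP5IF1, ATP5MC2, ATP5PD and ATP5PF of complex V. These genes were named after their values within series 30 had been seen.

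ATP5F1B had 6.75, 5.81, 7.07, 7.98 and 8.36 FPKM in the WSD/WSD livers of series 30, against 4.62, 3.84, 3.41 and 4.53 FPKM in the CD/CD livers. These did not overlap. The 5 CD/CD livers of series 33 had 5.47 to 12.3 FPKM, above every CD/CD liver of series 30. ATP5IF1 had 33.5 to 66.1 FPKM in the WSD/WSD and 79.6 to 103 FPKM in the CD/CD livers of series 30, a log2 fold change of -0.98 ± 0.17 (SE; limma, adjusted p = 0.000651), while the CD/CD livers of series 33 had 51.1 to 69.7 FPKM.

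COX7C had 365, 476, 375, 330.4 and 415 FPKM in the WSD/WSD livers of series 30, against 734, 798, 600.3 and 662 FPKM in the CD/CD livers. Each WSD/WSD value lay below each CD/CD value. The share of all genes that did not overlap within series 30 was not computed. The log2 fold change was -0.83 ± 0.14 (SE; limma, adjusted p = 0.000416). Both WSD/WSD livers of series 31 had 662 FPKM.

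In 3 CD/WSD against the same 4 CD/CD livers of series 30, 7 subunits fell and 3 rose, where 39.1% of all genes were called, 9.75% as lower and 29.3% as higher. ATP5F1B (log2 fold change 1.21), ATP5F1A (0.90) and SDHA (0.77) rose. ATP5F1E (-0.91), COX5B (-0.73), ATP5IF1 (-0.71), UQCRB (-0.62), COX6C (-0.54), ATP5F1D (-0.46) and ATP5PD (-0.45) fell. Both comparisons share their CD/CD animals.

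Scaling each library to the median of its gene ratios moved these counts. Within series 30 it gave 17 subunits that fell and 1 that rose in WSD/WSD against CD/CD livers, where 47.2% of all genes were called (23% lower, 24.2% higher). ATP5F1B rose here too, by 0.45 with a limma adjusted p of 0.0026, while ATP5F1A was at 0.46 and SDHA at 0.24 with adjusted p-values of 0.0626 and 0.344. The summed level of 8 Kupffer cell markers in series 30 was 617 to 745 FPKM in WSD/WSD, 724 to 868 in CD/WSD and 369 to 518 in CD/CD livers. That of 7 endothelial markers was 72.2 to 82.4 FPKM in WSD/WSD, 78.7 to 88.2 in CD/WSD and 30.6 to 39.3 in CD/CD livers. That of 8 stellate cell and fibroblast markers was 132 to 141 FPKM in WSD/WSD, 128 to 164 in CD/WSD and 90.6 to 122 in CD/CD livers. The mitochondrial share there was 1.34% to 1.98% in WSD/WSD, 1.62% to 1.78% in CD/WSD and 2.44% to 3.46% in CD/CD livers. Their part in the subunits' values was not tested.

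**Figure D5:**
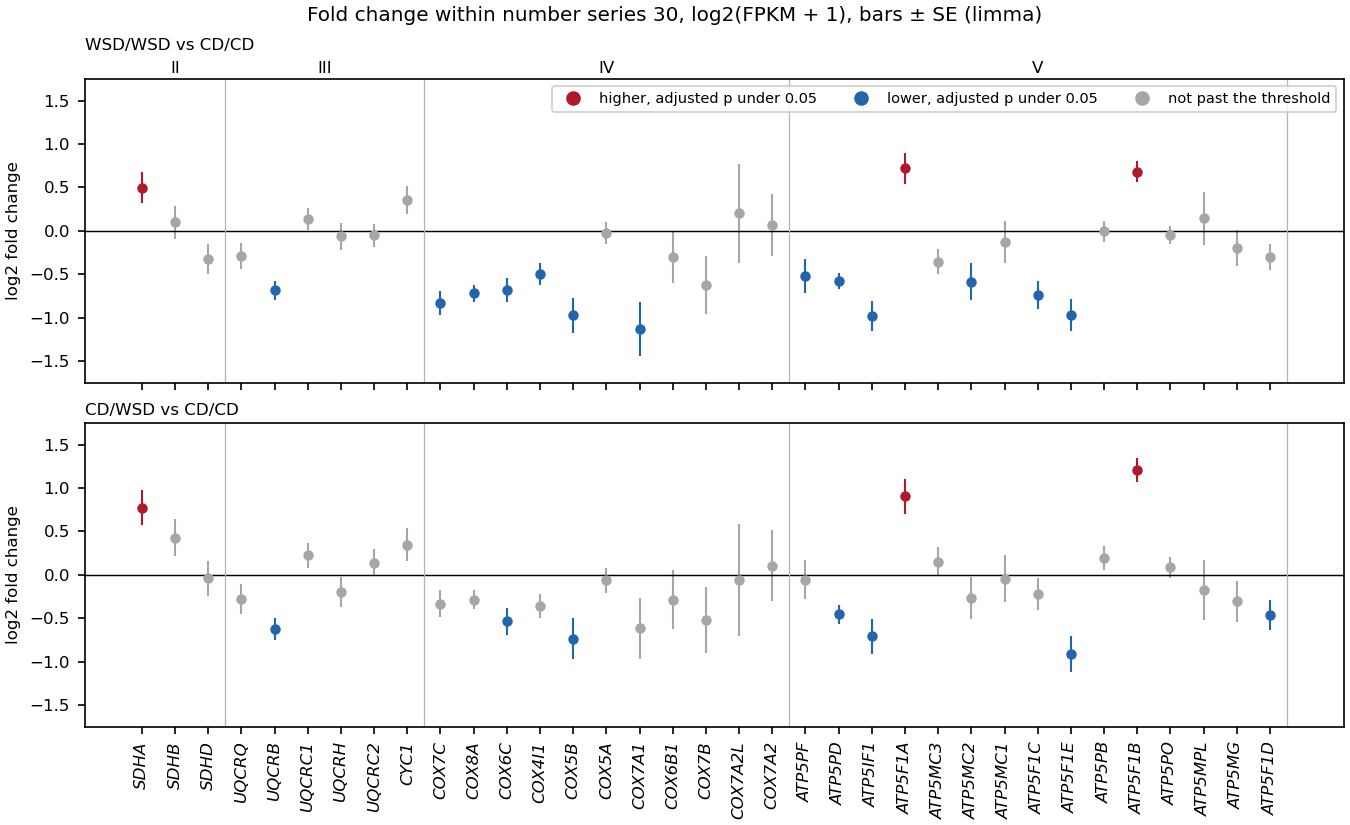
Log2 fold change (log2(FPKM + 1) scale, bars ± SE) of the 35 subunits within number series 30, for 5 WSD/WSD (top) and 3 CD/WSD livers (bottom), each against the same 4 CD/CD livers. SDHA, ATP5F1A and ATP5F1B stand above 0 in red in both panels, and UQCRB, COX5B, COX6C, ATP5IF1, ATP5F1E and ATP5PD stand below 0 in blue in both.

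WSD/WSD and CD/WSD livers, which differ in maternal diet among western-fed offspring, gave no call for any of the 35 subunits, as for all genes tested (0% called). With limma 4 subunits had an unadjusted p under 0.05, as did 307 of all 12497 genes. COX7C was at 469 ± 139 FPKM in WSD/WSD and 659 ± 145 FPKM in CD/WSD livers, and ATP5PF at 212 ± 55.3 and 306 ± 83.9 FPKM (SD, n = 7 and 6). Both had a limma adjusted p of 0.962. The interaction of both diets also gave no call for the 35 subunits or for any gene (0% called). Its smallest adjusted p among the subunits was 0.209 with limma, so effects of one diet were not shown to differ with the other. An unadjusted p under 0.05 was found for 9 subunits and for 2453 of all 12497 genes.

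Between WSD/WSD and WSD/CD livers, which differ in postweaning diet among offspring of western-fed mothers, 10 of 35 subunits rose in WSD/WSD and 2 fell. Over all genes 44% were called, 37.9% as higher and 6.14% as lower. The subunits' median log2 fold change was 0.19, against 0.26 over all genes. ATP5F1A was at 62.1 ± 9.01 FPKM in WSD/WSD and 31.998 ± 19.2 FPKM in WSD/CD livers (SD, n = 7 and 10), with a log2 fold change of 1.12 ± 0.28 (SE; limma, adjusted p = 0.00296).

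The others that rose were SDHA and SDHB of complex II, CYC1, UQCRC1 and UQCRH of complex III, COX5A of complex IV, and ATP5F1B, ATP5MC1 and ATP5PB, a stator subunit, of complex V, with log2 fold changes from 0.40 to 0.78. ATP5PF fell, at 212 ± 55.3 FPKM in WSD/WSD and 339 ± 96.2 FPKM in WSD/CD livers, a log2 fold change of -0.67 ± 0.19 (SE; limma, adjusted p = 0.00654). ATP5IF1 fell too, by 0.56 on the log2 scale, with a limma adjusted p of 0.00989. The 5 subunits SDHB, UQCRC1, UQCRH, COX5A and ATP5MC1, which rose here, were among the 10 that fell in WSD/CD against CD/CD livers, and both comparisons use the same WSD/CD animals. In WSD/WSD against WSD/CD livers 7 of 9 hepatocyte markers rose, 5 of 8 stellate cell and fibroblast markers fell and 10 of 12 mitochondrially encoded genes fell, and their part in the subunits' values was not tested.

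The balance between higher and lower calls turned with the scaling. The median of all genes moved from 0.26 to -0.00029 with median-of-ratios scaling, and then 2 subunits rose in WSD/WSD livers (ATP5F1A and UQCRC1) and 7 fell (ATP5PF, ATP5IF1, COX7C, UQCRB, COX6C, COX5B and ATP5F1E), where 35.5% of all genes were called (18.6% higher, 16.8% lower). ATP5F1A and UQCRC1 rose and ATP5PF and ATP5IF1 fell under both, and no subunit called under both changed direction. With quantile normalization 2 rose and 8 fell, with a factor for the number series 5 rose and 8 fell, and within series 30 (5 against 2 livers) 4 rose and 9 fell, where 37.8%, 40.9% and 41.5% of all genes were called. Without the 5 animals of series 34 the call was ATP5IF1 alone, lower by 0.68 on the log2 scale (limma adjusted p = 0.0452). Over all genes 3.46% were called there. The log2 ratio of MT-CYB over UQCRC2 was 2.50 ± 0.363 in WSD/WSD and 4.39 ± 1.92 in WSD/CD livers (adjusted exact permutation p = 0.0262), and without those animals the difference was -0.62 with an adjusted exact permutation p of 0.134. The differences of MT-CO1 over COX4I1 (-1.25) and MT-ATP6 over ATP5F1B (-1.89) did not pass, with adjusted exact permutation p-values of 0.11 and 0.0735.

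Other genes of the pathway were read from lists, beside the shares of all genes called in each comparison: 8.03% lower and 1.52% higher in WSD/CD, and 3.42% lower and 13.2% higher in WSD/WSD livers, each against CD/CD. Of 29 tested complex I subunits, 11 fell in WSD/CD and 8 fell in WSD/WSD against CD/CD livers, with none higher in either. Of 19 tested complex IV assembly factors 3 fell in WSD/CD, and 3 fell and 1 rose in WSD/WSD livers, among them COX17, a copper carrier, with a log2 fold change of -0.83 in WSD/WSD livers. Of 12 citric acid cycle enzymes 5 fell in WSD/CD livers, among them FH, fumarase (-0.80), and 1 rose in WSD/WSD livers, SUCLA2, a succinyl-CoA synthetase chain (0.71).

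Assembly factors of complexes II, III and V fell in 0 of 4, 1 of 5 and 2 of 4 cases in WSD/CD and in 1 of 4, 2 of 5 and 0 of 4 in WSD/WSD livers, each against CD/CD. A list of cytochrome c and carriers also held NDUFA4, which is neither. Of its 4 tested genes 0 fell in WSD/CD livers and 1, NDUFA4 itself (-0.39), fell in WSD/WSD livers. Of 11 genes of the mitochondrial outer membrane and import 3 fell in WSD/CD and none was called in WSD/WSD livers. Of 12 regulators of respiratory gene transcription 2 fell in WSD/CD livers, POLRMT, the mitochondrial RNA polymerase (-0.48), and TFB2M, its initiation factor (-0.33). In WSD/WSD livers, where 13.2% of all genes rose, 4 of the 12 did, among them GABPA, a transcription factor for respiratory genes (0.75), and TFAM, which packages and transcribes mitochondrial DNA (0.96).

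Across the 5 pairwise comparisons and the interaction, 16 of the 35 tested subunits (45.7%) were called in none, against 49.2% of all genes tested. They were SDHD of complex II, UQCRC2 and UQCRQ of complex III, COX6B1, COX6C, COX7A1, COX7A2, COX7A2L, COX7B and COX7C of complex IV, and ATP5F1D, ATP5MC3, ATP5PD, ATP5PO, ATP5MG and ATP5MPL of complex V. ATP5PO, listed under an identifier that a reference table pairs with another gene name, was at 4.79 ± 0.811 FPKM in WSD/WSD, 4.43 ± 1.11 in WSD/CD livers, 5.06 ± 0.577 in CD/WSD livers and 4.75 ± 1.26 in CD/CD livers (SD, n = 7, 10, 6 and 10), and its identity is uncertain.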

How the data were processed

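Per the labels' protocols, liver RNA was prepared with a Qiagen RNeasy Mini kit, made into directional mRNA libraries with a Swift kit and sequenced from both ends on a NovaSeq. Per the submitters' processing notes, GSNAP, SAMtools and Cufflinks were used. Which genome build and settings they ran with is not given in the sources used here. A single table deposited by the authors holds FPKM values of 34882 genes in 33 libraries and no counts, so depth is unknown. Steps between low values gave a rough relative depth of 0.531 to 1.65.

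Entries of 999999999 were taken as missing, and 15 genes with such an entry, ALB among them, were left out of the fit and of marker sums. The summed FPKM under the mitochondrial share skipped missing entries only. ALB, missing in 31 libraries, thus counted in the others. Genes averaging 0.5 FPKM or more over all libraries (12497) entered 1 limma 3.58.1 model in R 4.3.3 with an intensity trend, 4 group means and 29 residual degrees of freedom, on log2(FPKM + 1), a scale that understates changes of low genes. P-values were adjusted by Benjamini-Hochberg over these genes. Ratios were tested by permutation with SciPy 1.17.1. The procedure was tested on simulated data.

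Members and lists were chosen with earlier results of these data known. The text names, for each comparison and complex, the gene with the smallest p, any called member, the highest and lowest gene of each complex, ATP5IF1, COX7A2L and tissue isoforms, and of other lists the 2 genes with the smallest p. Genes outside this rule were named after their values were seen. Alternatives covered pseudocount, filter, scaling, model, weights, covariates, number series and leaving out libraries. ATP5MPL has the name ATP5MJ in the reference table.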

Additional observations from a re-analysis of the deposited data

Results flagged for a closer look

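In groups of 6 to 10 animals, 10 of 120 sets of values held an animal set apart from the others by more than Dixon's critical gap. Chance alone sets apart about 5% of groups of independent, normally spread values. Genes of 1 library are not independent, and any value above 0 is set apart where all others are 0, as for COX6A2. The count of 10 therefore cannot be compared with that rate. CD/WSD replicate 5 accounted for 6 of them. It had 20.04 FPKM of ATP5F1A (others 47.1 to 74.3), 5.79 of CYC1 (others 10.98 to 12.5), 14.8 of SDHA (others 26.5 to 35.8) and 22.04 of UQCRC1 (others 39.8 to 45.7), its COX6A2 was at 0.591 FPKM where the others stood at 0, and its log2 ratio of MT-CO1 over COX4I1 was 3.38 (others 1.96 to 2.29).

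WSD/WSD replicate 4 had 2.12 FPKM of COX6A2, with the others of its group at 0. WSD/CD replicate 6 had 3.68 FPKM of ATP5MC1 (others 10.3 to 23.8), and CD/WSD replicate 4 had 38.0 FPKM of COX7A1 (others 11.8 to 17.2). CD/CD replicate 5 had a log2 ratio of MT-CO1 over COX4I1 of 1.06 (others 1.86 to 2.78).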

How the results depend on the processing

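The count of subunits called in WSD/CD against CD/CD livers was 10. It was 6 with no filter on low values, 5 with median-of-ratios scaling and 4 with quantile normalization (1 higher, 3 lower). With the Y-linked level as a covariate it was 6, and within series 30 it was 1. Over all genes 2.83%, 6.05%, 5.06%, 4.61% and 2.92% were called in these settings, in that order, against 9.55% as reported. It was 0 with only the groups compared, a factor for the number series or the mitochondrial share as a covariate. Within series 33 and without series 34, also with median-of-ratios scaling, it was 0 too. In the settings with 0 at most 0.024% of all genes were called. Leaving out 1 library gave 4 to 14, without a share of all genes given. In CD/WSD against CD/CD it was 0, but 11 with library weights, 5 with a factor for the number series and 10 inside series 30, where 42.4%, 34.2% and 39.1% of all genes were called, against 0.024% as reported.

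In WSD/WSD against CD/CD it was 5, where 16.7% of all genes were called. It was 12 with median-of-ratios scaling, 9 with quantile normalization and 10 with only the groups compared (18.2%, 17.9% and 27.3% of all genes). With library weights it was 13, with a factor for the number series 15 and with the mitochondrial share as a covariate 10 (39.3%, 44.2% and 24.9%). Within series 30 it was 16, and 18 with median-of-ratios scaling (44.7% and 47.2%). Within series 31, 2 WSD/WSD livers stand against 1 CD/CD liver, so no count is given. Leaving out 1 library gave 3 to 9, again without a share of all genes given. In WSD/WSD against WSD/CD it was 12, and 7 with only the groups compared, 1 without series 34 and 0 with the mitochondrial share as a covariate. Over all genes 44%, 36%, 3.46% and 0.096% were called in these settings, in that order. Leaving out 1 library gave 8 to 12, also without a share of all genes given.

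The WSD/CD minus CD/CD difference in the log2 ratio of MT-CO1 over COX4I1 was 0.66 without series 34, which did not pass the threshold. It was 0.84 within series 30 (2 against 4 livers) and 0.36 within series 33 (3 against 5 livers). So few livers allow too few regroupings for the exact test to pass in series 30, and hardly enough in series 33, so no conclusion is drawn there. The difference of MT-CYB over UQCRC2 in WSD/WSD minus WSD/CD livers was -0.62 without series 34 and -0.74 within series 30, where 5 against 2 livers could not pass either. Signs turned for MT-CO1 over COX4I1 in CD/WSD minus CD/CD within series 30 (-0.26), for MT-CYB over UQCRC2 in WSD/CD minus CD/CD without series 34 (-0.0061) and within series 30 (-0.45), and in WSD/WSD minus CD/WSD within series 30 (0.0072). They also turned for ATP5PB (-0.0026) and COX5A (-0.031) in WSD/WSD against WSD/CD with the mitochondrial share as a covariate, for ATP5MC1 within series 30 (0.070 in WSD/CD against CD/CD, -0.20 in WSD/WSD against WSD/CD) and for COX5B within series 31 (0.21, from 2 WSD/WSD livers against 1 CD/CD liver). The cause was not tested. The fit within series 31, the ratios within series 33, leaving out 1 library, and the combined settings were chosen after seeing the data. No paired analysis was possible because the replicate numbers only name animals in accession order. Depth is unknown, which limits what can be said of low genes such as SDHD and COX7A2.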
